A study of Homo sapiens with 15 samples.

Results

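Enzymes that make serine and pass its side-chain carbon onto folate were followed across a dose series of the histone deacetylase inhibitor martinostat in K562 cells. The 9 genes, PHGDH, PSAT1, PSPH, SHMT1, SHMT2, MTHFD1, MTHFD2, MTHFD1L and ALDH1L2, were chosen by name for their place in this pathway, out of 60649 genes in the count table. The choice was made with earlier results of these data known. All 9 had enough counts to be tested. K562 is an established erythroleukaemia line from chronic myeloid leukaemia, kept in RPMI-1640 with fetal bovine serum, and all libraries came from this 1 line. Cells were left untreated or received 0.15, 0.25, 0.5 or 1 µM martinostat for 24 h, and polyadenylated RNA was sequenced from 3 libraries per group, 15 in all. The study describes the 3 libraries of a group as independent biological replicates. The edgeR p-values rest on the spread within groups, pooled over all 15 libraries and moderated across genes.

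Serine is made from the glycolytic intermediate 3-phosphoglycerate in a chain of 3 enzymes: PHGDH oxidises it, PSAT1 transfers an amino group and PSPH removes the phosphate. Serine hydroxymethyltransferases then split serine into glycine and a one-carbon unit carried on tetrahydrofolate, SHMT1 in the cytosol and SHMT2 in mitochondria. MTHFD2 and MTHFD1L carry the mitochondrial unit to formate, ALDH1L2 can instead release it as carbon dioxide with the making of NADPH, and MTHFD1 takes up formate in the cytosol for the synthesis of purines and thymidylate. Proliferating leukaemia cells use the pathway heavily, and MYC and the stress-responsive factor ATF4 are known regulators of several of its genes.

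Levels are given as CPM, a gene's counts per 1000000 counts of the library, with library totals first scaled by TMM, which corrects for differences in RNA composition. Fold changes are log2 values ± SE from edgeR's quasi-likelihood test in 1 fit of the 15 libraries. Its p-values were adjusted by Benjamini-Hochberg over all 23711 genes tested, and genes under 0.05 are called. Library totals ran from 23755510 to 32805574 counts. The replicate 3 libraries at 0.25 and 0.5 µM stood apart, with TMM factors of 1.284 and 1.223 against 0.95 to 1.109 for the other treated libraries and 0.784 to 0.828 for untreated ones. On principal component 3, which held 5.72% of the variance, these 2 lay at 46.7 and 48.9 and the rest at 8.6 or below. Where leaving them out changes a call on one of the 9 genes, that value is given as well. The median log2 change of all tested genes was 0.28, 0.32, 0.34 and 0.32 at the 4 rising doses, and that of the 10128 genes averaging at least 10 CPM was -0.28, -0.40, -0.37 and -0.39. With scaling by library totals alone the all-gene medians were 0.64, 0.85, 0.72 and 0.67, so modest changes depend on the scaling. In these bulk libraries a smaller number of cells of a type and less RNA per cell cannot be told apart. The K562 markers HBZ, GATA1 and LMO2 averaged 1050, 328 and 168 CPM in untreated cells, while the lymphocyte marker MS4A1 and the fibroblast marker LUM were at 0. The 10 erythroleukaemia markers summed to between 2405 and 2657 CPM in untreated libraries. Their sum was 1274 to 1510, 694 to 1122, 234 to 573 and 417 to 639 CPM at the rising doses, and at 1 µM 8 were lower and 1 higher. Of all genes tested 27.5% were lower and 38.8% higher at that dose, and of those averaging at least 10 CPM 48.4% and 26.5%. The 6 lymphocyte markers summed to between 5.79 and 9.28 CPM untreated and were highest at 0.15 µM, with 21.1 to 30 CPM, where CD3E and CD3D were 6.23- and 4.24-fold higher. At the other doses they summed to 15 to 18.8, 9.03 to 10.7 and 10 to 13.2 CPM, with PTPRCAP at 0 in all groups. CORO1B covers 100% of PTPRCAP exon bases on the same strand, so this 0 cannot be read as absence. Among the erythroleukaemia markers, same-strand genes cover 90.01% of HBE1 and 55.65% of HBG2 exon bases, so their counts are uncertain. The 6 fibroblast markers went from 22 to 25.4 CPM untreated to 272 to 364, 271 to 373, 348 to 449 and 302 to 488 CPM. The collagen COL1A1 averaged 4.36 CPM untreated and 398 CPM at 1 µM, most of the sum there. Of the 4 fibroblast markers tested, 2 were higher, 1 was lower and 1 was not called at 1 µM, beside the same shares of all genes. The part of these shifts in the results on the enzymes was not tested.

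The 9 genes split into those that fell by more than 4-fold with dose, those that fell by less, 1 that was lower only at the 2 lower doses, and 2 that went up at some doses. At 0.15 µM PHGDH rose and PSAT1, MTHFD1, MTHFD2 and MTHFD1L fell, so that 1 gene was higher and 4 were lower. Over all genes tested in that comparison 31.9% were higher and 19.4% lower. At 0.25 µM 2 were higher and 7 lower, against 37.4% and 24.8% of all genes. At 0.5 µM 1 was higher and 6 lower, against 39.4% and 27.6%, and at 1 µM 1 was higher and 5 lower, against 38.8% and 27.5%. Among genes averaging at least 10 CPM, a closer match in level for 8 of the 9, the shares were different. There 21.1%, 22%, 26.6% and 26.5% were higher and 40.2%, 48.7%, 48.7% and 48.4% lower at the 4 doses. The median of the 9 log2 changes was -0.47, -0.76, -0.62 and -0.63 at the 4 doses. Together the 9 genes took 0.107% of all counts in untreated cells and 0.0851%, 0.0689%, 0.0684% and 0.0705% at the rising doses.

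**Figure D1:**
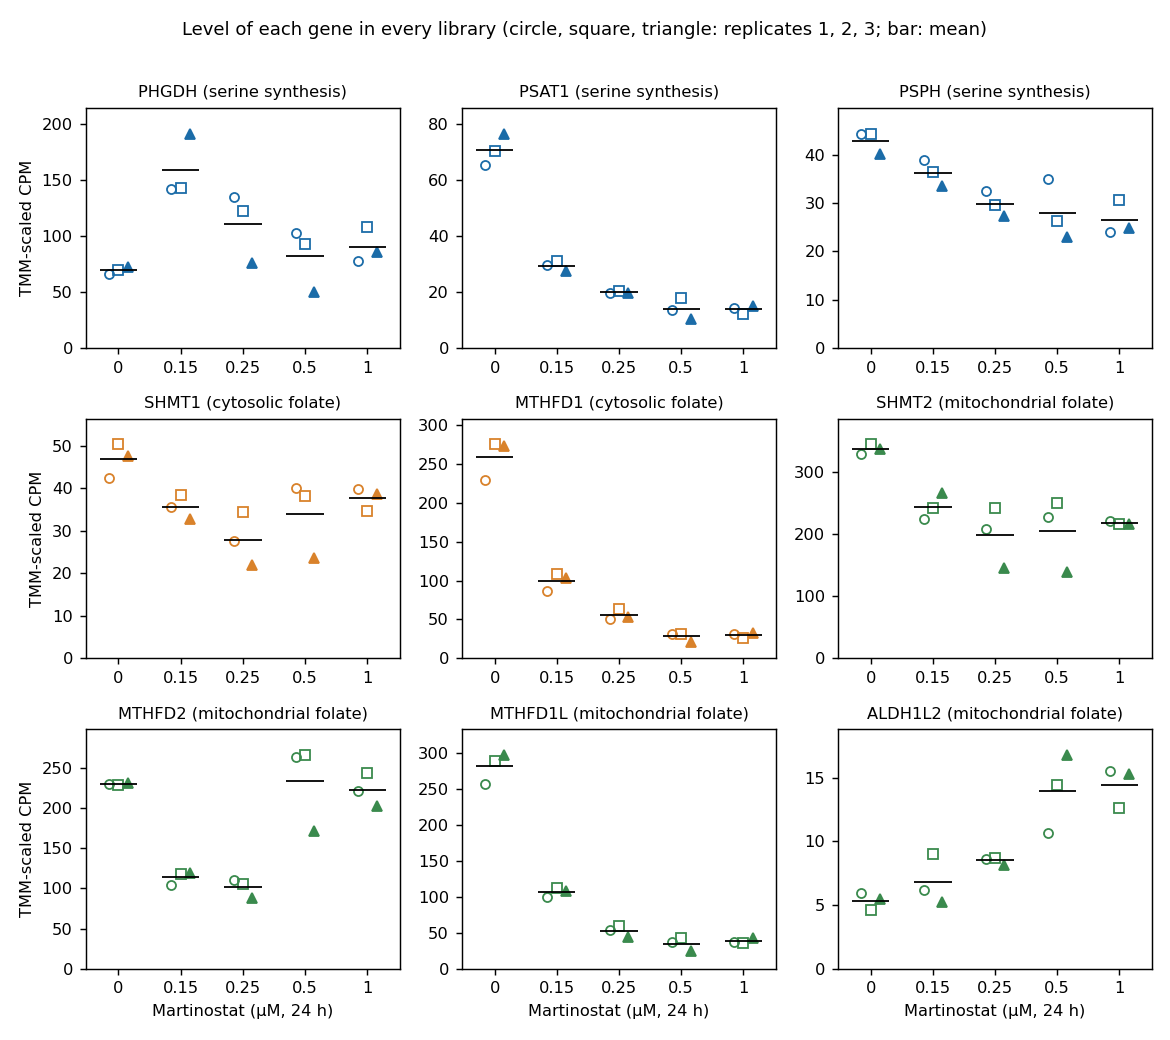
Level of each of the 9 genes in every library, in TMM-scaled CPM from 0 on a linear axis, against martinostat dose. Circles, squares and filled triangles are replicates 1, 2 and 3 and bars are means of 3 libraries. PSAT1, MTHFD1 and MTHFD1L step down with dose, MTHFD2 is at a mean of 114 and 102 CPM at the 2 lower doses and 233 and 222 at the 2 higher ones, and the replicate 3 libraries at 0.25 and 0.5 µM lie low for PHGDH, SHMT1 and SHMT2.

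PHGDH, the first and committing enzyme of serine synthesis (chr1:119648411-119744218, plus strand, hg38), was highest at the lowest dose. Its level was 66.2, 69.9 and 72.6 CPM in the untreated libraries and 142, 143 and 191 CPM at 0.15 µM. It was 135, 122 and 75.4 CPM at 0.25 µM, 103, 92.6 and 50 CPM at 0.5 µM and 77.9, 108 and 85.6 CPM at 1 µM. Every library at 0.15, 0.25 and 1 µM lay above every untreated one, while replicate 3 at 0.5 µM lay below them all. With library totals alone, that replicate 3 library lay above all untreated ones. PHGDH rose by 1.19 ± 0.24 at 0.15 µM, 2.28-fold (edgeR adjusted p = 0.000585). It rose by 0.67 ± 0.24 at 0.25 µM (edgeR adjusted p = 0.0233), a call that was lost when either of the first 2 libraries of that dose or of the untreated group was left out. Without the replicate 3 libraries at 0.25 and 0.5 µM the change at 0.25 µM was 0.91 (edgeR adjusted p = 1.43e-05). At 0.5 and 1 µM the differences were 0.23 ± 0.24 and 0.38 ± 0.24 (edgeR adjusted p = 0.404 and 0.178). Without the same 2 libraries they were 0.53 and 0.42, both called (edgeR adjusted p = 0.0037 and 0.00874). With library totals they were 0.57 and 0.73, also called (edgeR adjusted p = 0.012 and 0.00217). From 0.15 to 1 µM PHGDH fell by 0.81 ± 0.24 on the log2 scale (edgeR adjusted p = 0.0114), which was lost without replicate 3 at 0.15 µM or the first at 1 µM.

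PSAT1, the aminotransferase that follows PHGDH (chr9:78297125-78330093, plus strand), went the other way at every dose. It stood at 65.3, 70.4 and 76.5 CPM in the untreated libraries and 29.5, 31.1 and 27.5 CPM at 0.15 µM. The values were 19.5, 20.4 and 19.6 CPM at 0.25 µM, 13.4, 17.9 and 10.4 CPM at 0.5 µM and 14.1, 12.1 and 15 CPM at 1 µM. No treated library reached an untreated one, and the libraries of 0.15, 0.25 and 0.5 µM did not overlap. The log2 changes were -1.27, -1.83, -2.35 and -2.37, each ± 0.17, which is 5.16-fold lower at 1 µM (edgeR adjusted p = 6.93e-10). All 17 alternative fits called PSAT1 lower at each of the 4 doses.

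PSPH, the phosphatase of the last step (chr7:56011051-56051604, minus strand), fell less. It was 44.3, 44.3 and 40.2 CPM in untreated libraries, 38.9, 36.4 and 33.6 CPM at 0.15 µM and 32.4, 29.5 and 27.4 CPM at 0.25 µM. At 0.5 µM it was 34.9, 26.2 and 23 CPM and at 1 µM 24, 30.7 and 24.8 CPM. All treated libraries lay below all untreated ones in TMM-scaled CPM. With library totals alone, the libraries at 0.15, 0.25 and 0.5 µM overlapped the untreated ones. The change was -0.24 ± 0.16 at 0.15 µM (edgeR adjusted p = 0.207), where 4 of 17 alternatives gave a change above 0, and -0.53, -0.62 and -0.70 at the next 3 doses (edgeR adjusted p = 0.00673, 0.00199 and 0.000714). These 3 calls were lost with library totals, with TMM factors taken from genes of at least 10 CPM and with both limma fits on FPKM. The pseudogene PSPHP1 held 12.1% as many counts as PSPH, and reads split between the 2 copies would alter the value, so PSPH is uncertain.

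Because PHGDH and PSAT1 are neighbours in the chain, their levels were set against each other inside each library, which removes the scaling. PSAT1 counts per kb of exon were 4.11, 4.19 and 4.39 times those of PHGDH in untreated libraries. Without the division by length their untreated means were close, 70.7 and 69.6 CPM. The size of the ratio thus rests on the annotated exon lengths, 2206 bases for PSAT1 and 9187 for PHGDH, while its change between groups does not. At 0.15 µM the ratio was 0.869, 0.905 and 0.602, and at 1 µM it was 0.754, 0.467 and 0.728. All 12 treated libraries, whose ratios lay between 0.467 and 1.08, were below the untreated ones. The log2 ratio changed by -2.44, -2.46, -2.55 and -2.73 at the 4 doses (exact permutation test, two-sided, p = 0.1 at each dose, adjusted p = 0.133 over 16 ratio tests). With 3 libraries against 3 this test cannot give a p under 0.1.

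The 100 bases before the transcription start of these consecutive enzymes are shown because the genes moved apart. They are RefSeq promoter sequences on GRCh38.p14, whose chromosomes match hg38, read 5′ to 3′ on the plus strand, for PHGDH at chr1:119711834-119711933 and for PSAT1 at chr9:78297025-78297124. Neither window, from 250 bases before to 50 after the start, held any of the motifs searched on both strands: TGATGNAA, a core of the element bound by ATF4 with C/EBP partners, CACGTG, the E-box bound by MYC among others, and TGACNNNGC, a core of the antioxidant element.
PHGDH: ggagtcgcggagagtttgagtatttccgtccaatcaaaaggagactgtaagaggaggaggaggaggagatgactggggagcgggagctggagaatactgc
PSAT1: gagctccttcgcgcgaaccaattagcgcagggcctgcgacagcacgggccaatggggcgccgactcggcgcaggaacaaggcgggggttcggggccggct

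SHMT1, the cytosolic serine hydroxymethyltransferase (chr17:18327860-18363563, minus strand), was lowest at 0.25 µM. The untreated libraries held 42.4, 50.3 and 47.7 CPM and those at 0.15 µM 35.5, 38.5 and 32.8 CPM. Values at 0.25 µM were 27.6, 34.3 and 21.9 CPM, at 0.5 µM 40, 38.2 and 23.5 CPM and at 1 µM 39.8, 34.6 and 38.6 CPM. In TMM-scaled CPM every treated library was below every untreated one at each dose. With library totals alone, treated and untreated libraries overlapped at each dose, so this separation depends on the scaling. SHMT1 fell by 0.75 ± 0.19 at 0.25 µM (edgeR adjusted p = 0.00201), a call lost in 4 of 17 alternatives. These were library totals, TMM restricted to genes of 10 CPM or more (-0.33, edgeR adjusted p = 0.0844) and both limma fits on FPKM. At 0.5 µM the change was -0.47 ± 0.19 (edgeR adjusted p = 0.0345), but 12 of 17 alternatives lost this call, and without the replicate 3 libraries it was -0.22 (edgeR adjusted p = 0.166). At 0.15 and 1 µM the differences were -0.39 and -0.31, each ± 0.19 (edgeR adjusted p = 0.0856 and 0.146), and with library totals the one at 1 µM was 0.04. Without the replicate 3 libraries the change at 0.15 µM was again -0.39 and was called (edgeR adjusted p = 0.00869).

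MTHFD1, the cytosolic enzyme that carries 3 folate activities (chr14:64388031-64463457, plus strand), had the largest fold decrease of the 9 at 0.5 and 1 µM. It was at 229, 275 and 273 CPM in untreated libraries, 86.4, 109 and 103 CPM at 0.15 µM and 50.7, 63.2 and 53.3 CPM at 0.25 µM. It reached 31, 31.9 and 21.5 CPM at 0.5 µM and 30.8, 26.7 and 32 CPM at 1 µM. The groups did not overlap from untreated down to 0.5 µM, and those at 0.5 and 1 µM overlapped. The changes were -1.38 ± 0.16, -2.22 ± 0.17, -3.20 ± 0.17 and -3.12 ± 0.17, with edgeR adjusted p from 1.05e-06 to 1.23e-11, and MTHFD1 was 8.67-fold lower at 1 µM. The call held in 17 of 17 alternatives at every dose. Genes on the opposite strand, ZBTB25 among them, cover 11.06% of its exon bases, and the strand setting of the authors' counting is not given in the sources used here.

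SHMT2, the mitochondrial counterpart of SHMT1 (chr12:57229573-57234935, plus strand), was the most abundant of the 9 per length in every group. It was 330, 345 and 338 CPM in the untreated libraries, 224, 242 and 266 CPM at 0.15 µM and 209, 243 and 145 CPM at 0.25 µM. At 0.5 µM it was 228, 250 and 139 CPM and at 1 µM 221, 216 and 216 CPM. All treated libraries were below the untreated ones, and the replicate 3 libraries at 0.25 and 0.5 µM were the lowest of all. The change was -0.47 ± 0.20 at 0.15 µM (edgeR adjusted p = 0.0542). It was called in 7 of 17 alternatives, among them the fit without the replicate 3 libraries (-0.46, edgeR adjusted p = 0.000716). SHMT2 fell by 0.76, 0.72 and 0.63 at the next 3 doses (edgeR adjusted p = 0.00251, 0.00352 and 0.00834). Without the replicate 3 libraries it fell by 0.55 and 0.46 at 0.25 and 0.5 µM (edgeR adjusted p = 0.000374 and 0.00178). Scaling by library totals removed the calls at 0.25 and 1 µM, as did both limma fits on FPKM. TMM restricted to genes of 10 CPM or more removed all 3 (-0.32 at 0.5 µM, edgeR adjusted p = 0.0897). The log2 ratio of SHMT2 to SHMT1 within a library moved by -0.08, -0.03, -0.26 and -0.32 at the 4 doses (exact permutation p = 0.6, 0.8, 0.1 and 0.1).

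MTHFD2, the mitochondrial dehydrogenase and cyclohydrolase (chr2:74186172-74217565, plus strand), fell at the 2 lower doses and was not called against untreated cells at the 2 higher ones, where other scalings called it higher. The untreated libraries held 230, 228 and 231 CPM, those at 0.15 µM 104, 118 and 119 CPM and those at 0.25 µM 111, 106 and 88.3 CPM. At 0.5 µM the values were 264, 266 and 171 CPM and at 1 µM 221, 244 and 202 CPM. The libraries of the 2 lower doses lay below all others, and those of the 2 higher doses lay on both sides of the untreated ones. With library totals alone, all libraries of the 2 higher doses lay above all untreated ones. MTHFD2 was 2.02-fold lower at 0.15 µM (-1.02 ± 0.16, edgeR adjusted p = 3.95e-05) and 2.25-fold lower at 0.25 µM (-1.17 ± 0.16, edgeR adjusted p = 5.08e-06). At 0.5 and 1 µM the change was 0.02 ± 0.16 and -0.05 ± 0.16 (edgeR adjusted p = 0.905 and 0.812). With library totals MTHFD2 was called higher at both doses, by 0.37 and 0.31 (edgeR adjusted p = 0.00942 and 0.028), and with TMM restricted to genes of 10 CPM or more by 0.43 and 0.35 (edgeR adjusted p = 0.00843 and 0.0288). From 0.25 to 0.5 µM it rose by 1.20 ± 0.16, 2.29-fold (edgeR adjusted p = 1.72e-05), and by 1.30 without the replicate 3 libraries. Between 0.15 and 1 µM it rose by 0.97 ± 0.16 (edgeR adjusted p = 8.02e-05). All alternatives kept both of these increases and both decreases. Genes on the opposite strand, SLC4A5 among them, cover 14.15% of its exon bases.

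MTHFD1L, the mitochondrial synthetase that releases formate (chr6:150865679-151101887, plus strand), followed MTHFD1. It was 257, 289 and 297 CPM in untreated libraries, 99.5, 112 and 108 CPM at 0.15 µM and 53.4, 59.7 and 43.6 CPM at 0.25 µM. It was 37.6, 42.7 and 24.4 CPM at 0.5 µM and 36.8, 35.3 and 42.6 CPM at 1 µM. With each rise in dose up to 0.5 µM all libraries lay below those of the dose before, and the groups at 0.5 and 1 µM overlapped. MTHFD1L changed by -1.40 ± 0.18, -2.43 ± 0.18, -3.01 ± 0.19 and -2.88 ± 0.19, with edgeR adjusted p from 2.71e-06 to 8.35e-11, and was 7.34-fold lower at 1 µM. The call held in 17 of 17 alternatives at each dose.

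ALDH1L2, the mitochondrial formyltetrahydrofolate dehydrogenase (chr12:105019784-105107643, minus strand), had the lowest level of the 9 and went up with dose. It was 5.97, 4.60 and 5.52 CPM in untreated cells, from 119 to 146 counts, and 6.22, 9 and 5.26 CPM at 0.15 µM. It was 8.64, 8.73 and 8.19 CPM at 0.25 µM, 10.7, 14.4 and 16.8 CPM at 0.5 µM and 15.5, 12.6 and 15.3 CPM at 1 µM. From 0.25 µM on, all treated libraries lay above all untreated ones. The change was 0.35 ± 0.22 at 0.15 µM (edgeR adjusted p = 0.192), and 0.71 with library totals, which was called (edgeR adjusted p = 0.0306). ALDH1L2 rose by 0.67 ± 0.22 at 0.25 µM (edgeR adjusted p = 0.0122, lost without the second untreated library), by 1.38 ± 0.22 at 0.5 µM and by 1.43 ± 0.22 at 1 µM, 2.70-fold (edgeR adjusted p = 1.78e-05 and 1.18e-05).

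**Figure D2:**
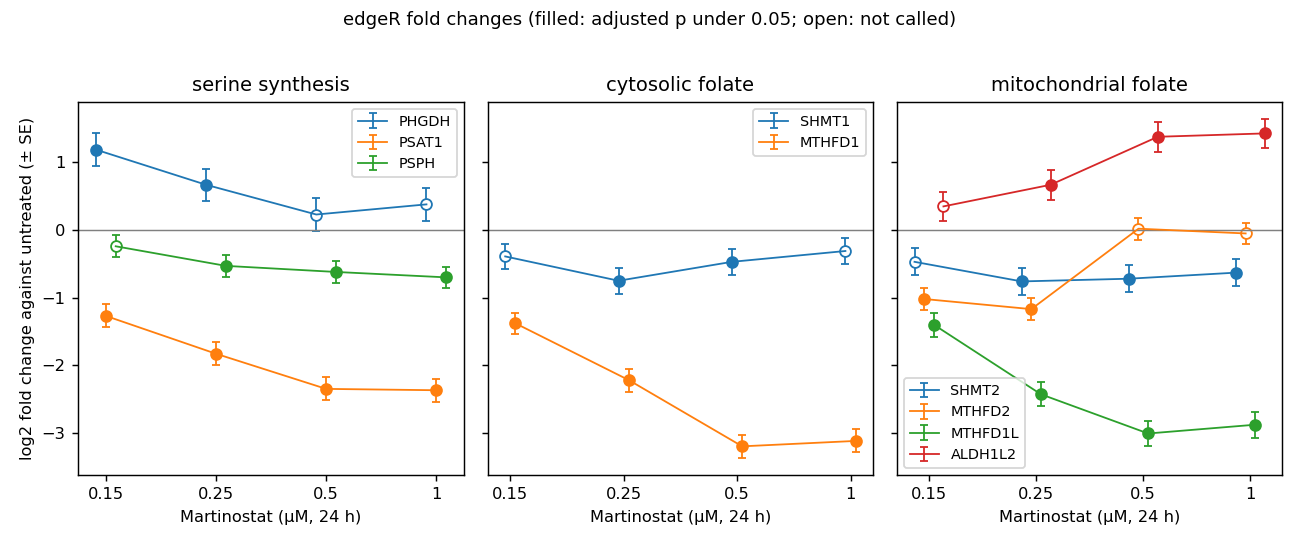
Log2 fold change of each gene against untreated cells (y axis, ± SE from edgeR, 3 libraries per group) at the 4 martinostat doses, in 3 panels by role. Filled points have an adjusted p under 0.05 and open points do not. MTHFD1 and MTHFD1L reach -3.12 and -2.88 at 1 µM, MTHFD2 is at -0.05 there and ALDH1L2 reaches 1.43.

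The changes came in the lower part of the dose range. From 0.15 to 0.25 µM no member was higher and 3 were lower, PSAT1, MTHFD1 and MTHFD1L, where 4.96% of all genes were higher and 7.32% lower. Their changes were -0.57 ± 0.17, -0.83 ± 0.16 and -1.03 ± 0.18 (edgeR adjusted p = 0.0318, 0.00237 and 0.00106), and 13 of 17 alternatives lost the call of PSAT1. From 0.25 to 0.5 µM MTHFD2 and ALDH1L2 were higher and the same 3 were lower, where 14.4% of genes were higher and 16% lower. PSAT1 changed by -0.52 ± 0.17, MTHFD1 by -0.99 ± 0.16, MTHFD1L by -0.58 ± 0.18 and ALDH1L2 by 0.71 ± 0.21 (edgeR adjusted p = 0.0242, 0.000121, 0.0163 and 0.0152). Without the replicate 3 libraries at these doses PSAT1 and ALDH1L2 were not called (-0.34 and 0.54, edgeR adjusted p = 0.111 and 0.0713), which left 3 of the 5 calls. The count was 2 when only the libraries of the 2 doses were fitted. Same-numbered libraries of these 2 doses deviated together. With the replicate number as a block in that smaller fit all 5 were called and PHGDH was called too, at -0.47 ± 0.10 (edgeR adjusted p = 0.00111), against -0.44 ± 0.29 in the smaller fit without the block (edgeR adjusted p = 0.321). The block in the fit of all 15 libraries left PHGDH at -0.44 ± 0.24 (edgeR adjusted p = 0.181) and the count at 5.

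From 0.5 to 1 µM edgeR called 0 of the 9 and 0% of all genes in either direction. The members' changes lay between -0.08 ± 0.16 for PSPH and 0.15 ± 0.19 for SHMT1. None of the 9 had an unadjusted p under 0.05 by edgeR, DESeq2 or limma on FPKM, against 372, 445 and 610 of all genes, and DESeq2 and limma called 0 of the 9 as well. Over the whole range from 0.15 to 1 µM 2 members were higher and 5 lower, where 21.5% of all genes were higher and 23.1% lower. MTHFD2 and ALDH1L2 (1.08 ± 0.21, edgeR adjusted p = 0.000422) rose. PHGDH, PSAT1 (-1.10 ± 0.17), PSPH (-0.46 ± 0.16), MTHFD1 (-1.73 ± 0.16) and MTHFD1L (-1.48 ± 0.18) fell, with edgeR adjusted p of 0.0244 for PSPH, lost in 8 of 17 alternatives, and at most 0.0114 for the others. SHMT1 and SHMT2 differed by 0.08 ± 0.19 and -0.17 ± 0.20 (edgeR adjusted p = 0.755 and 0.522).

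The balance between mitochondrial MTHFD2 and cytosolic MTHFD1 shifted inside the libraries. The related MTHFD2L, outside the 9 and named after its values were seen, is not part of this ratio. It averaged 41.3 CPM untreated and 21.8, 23.1, 11.2 and 10.7 CPM at the rising doses. MTHFD2 counts per kb of exon were 1.52, 1.26 and 1.28 times those of MTHFD1 in untreated libraries and 1.83, 1.64 and 1.75 times at 0.15 µM. The ratio was 3.33, 2.55 and 2.51 at 0.25 µM, 12.9, 12.6 and 12 at 0.5 µM and 10.9, 13.9 and 9.54 at 1 µM. Untreated, 0.15 and 0.25 µM libraries formed an ascending order without overlap, and the 2 higher doses lay above them together. The log2 ratio rose by 0.36, 1.04, 3.21 and 3.06 over untreated, a separation as complete as 3 against 3 allows (exact permutation p = 0.1 at each dose, adjusted p = 0.133). The replicate 3 libraries at 0.25 and 0.5 µM were at 2.51 and 12, close to the second ones. MTHFD1L to MTHFD1 stayed within 0.24 of its untreated log2 ratio at every dose, with changes of -0.01, -0.22, 0.17 and 0.24 (exact permutation p = 0.8, 0.2, 0.1 and 0.1).

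**Figure D3:**
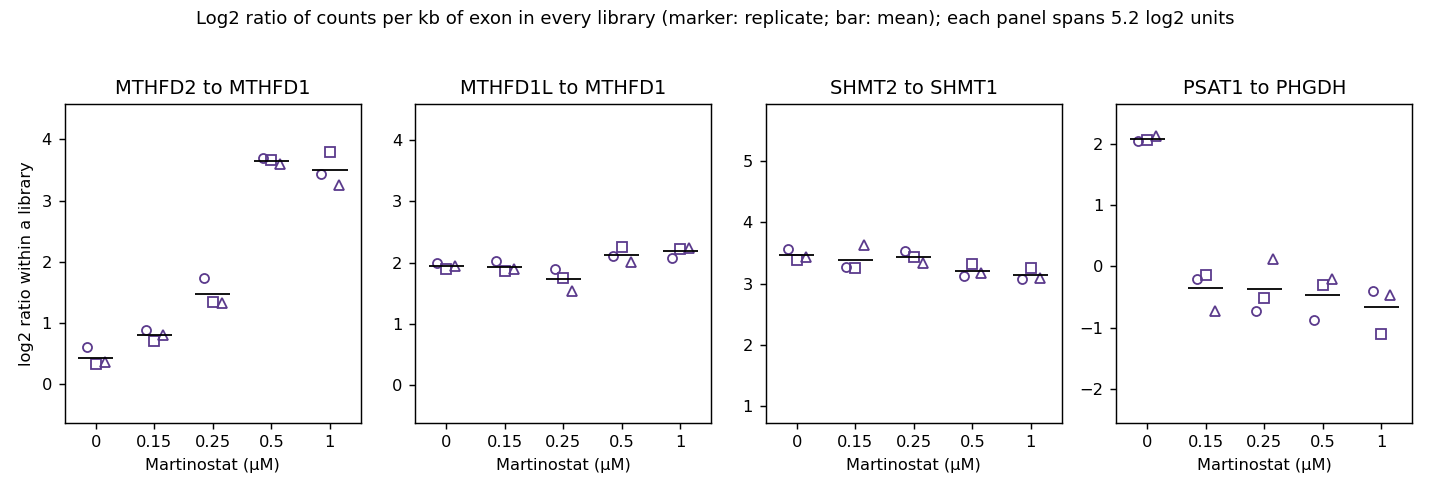
Log2 ratio of 2 genes' counts per kb of exon inside each library against martinostat dose, for 4 pairs. Markers are replicates 1 to 3, bars are means, and the 4 panels span the same range. The MTHFD2 to MTHFD1 ratio rises by 3.06 at 1 µM and PSAT1 to PHGDH drops by 2.73, while the other pairs move by 0.32 or less.

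Between genes, levels were compared as CPM per kb of the union of annotated exons, which lowers genes with many annotated transcripts. MTHFD1, MTHFD2 and PHGDH, with unions of 17357, 11443 and 9187 bases, are among those lowered, so the order of the genes depends on the annotation. In untreated cells SHMT2 was first at 73.5 ± 1.65 (SD, n = 3), then MTHFD1L at 57.4 ± 4.36, PSAT1 at 32.1 ± 2.54 and MTHFD2 at 20.1 ± 0.159. PSPH at 15.6 ± 0.854 and MTHFD1 at 14.9 ± 1.48 did not differ beyond their spread. PHGDH at 7.57 ± 0.352 and SHMT1 at 6.67 ± 0.577 followed, and ALDH1L2 was last at 0.565 ± 0.0738. At 1 µM SHMT2 was still first at 47.4 ± 0.595, followed by MTHFD2 at 19.4 ± 1.87. PHGDH at 9.84 ± 1.69, PSPH at 9.59 ± 1.32 and MTHFD1L at 7.82 ± 0.793 lay within or near each other's spread. PSAT1 was then at 6.22 ± 0.667, SHMT1 at 5.37 ± 0.391, MTHFD1 at 1.72 ± 0.162 and ALDH1L2 at 1.52 ± 0.171. MTHFD1L and PSAT1, behind SHMT2 alone in untreated cells, were then below MTHFD2, PHGDH and PSPH in mean level.

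The dose patterns of the members were compared by the root mean square (RMS) difference of their 4 log2 changes, as a description, since all 4 share the untreated libraries. PSPH and SHMT2 were nearest at 0.17, MTHFD1 and MTHFD1L were next at 0.19, and SHMT1 was 0.21 from SHMT2. MTHFD2 was 0.47 from SHMT1, PSAT1 0.52 from MTHFD1L and PHGDH 0.88 from ALDH1L2, which was in turn nearest to PHGDH. Among 10120 genes of at least 10 CPM, LARGE2, XYLT2 and FMNL3 were most like PHGDH, with RMS differences of 0.046, 0.065 and 0.088. LARGE2 changed by 1.26, 0.70, 0.27 and 0.36 at the 4 doses. ANKRD42, FBXW9 and PRIM2 were most like MTHFD2, at 0.096, 0.101 and 0.102. PRIM2, a subunit of DNA primase, changed by -1.08, -1.14, -0.14 and -0.15.

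Promoter windows of 300 bases were on hand for 6 of the 9 genes, in 9 windows of which 4 were starts of MTHFD1L, and not for PSPH, SHMT2 and ALDH1L2. They are described here because MTHFD1 and MTHFD1L moved nearly together. CACGTG was found in both genes, as it was in 7.26% of 35116 promoter windows. It began 15 bases before the start of MTHFD1, and in MTHFD1L 1 genomic copy fell in 3 of the 4 overlapping windows. TGATGNAA was in the same 3 windows of MTHFD1L, as TGATGCAA, and in 3.62% of all windows. TGACNNNGC was found in MTHFD2 alone, 7 bases into the transcript on the minus strand, and in 13.3% of all windows. The 100 bases before the MTHFD1 start (chr14:64388253-64388352) and the 20 bases around each match in MTHFD1L (chr6:150866325-150866344 and chr6:150866351-150866370) are given on the plus strand, with the matched letters in capitals. A match of letters is a description and does not show binding.
MTHFD1: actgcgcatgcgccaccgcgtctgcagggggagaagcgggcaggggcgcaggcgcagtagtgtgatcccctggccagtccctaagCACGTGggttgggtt
MTHFD1L E-box: ccggctcCACGTGcgcagcc
MTHFD1L ATF4-type core: cggctcTGATGCAAtcgcgc

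Of the factors known to regulate the pathway, ATF4 and MYC transcripts were lower at every dose. ATF4 averaged 382 CPM in untreated cells and 274, 169, 133 and 153 CPM at the 4 doses, and was lower at each (edgeR adjusted p = 0.0394, 2.7e-05, 1.11e-06 and 6.09e-06). Of 17 alternatives, 11 lost the first of these calls. MYC, the proliferation-linked transcription factor, averaged 610 CPM and then 399, 286, 29.7 and 35 CPM. Its log2 change was -0.61 ± 0.23 and -1.09 ± 0.24 at the 2 lower doses and -4.36 ± 0.27 and -4.13 ± 0.27 at the 2 higher ones (edgeR adjusted p = 0.0352, 0.000559, 9.55e-11 and 1.68e-10), and 9 and 3 of 17 alternatives lost the calls at the first 2. DDIT3, a stress-induced partner of ATF4, was at 11.6 and 10.6 CPM untreated and at 0.15 µM and rose by 1.71 and 1.68 at 0.5 and 1 µM (edgeR adjusted p = 6.48e-06 and 7.89e-06). Genes on the opposite strand cover 31.6% of its exon bases. ASNS, the asparagine synthetase commonly read as an ATF4 target, was at 2.23 CPM untreated and 2.35 CPM at 1 µM (0.08 ± 0.27, edgeR adjusted p = 0.81), and shares 49.33% of its exon bases with a gene on the same strand. In the list of 9 regulators and ATF4 targets, 3 were higher and 4 lower at 1 µM, with CEBPB highest at 2.06 ± 0.17 and MYC lowest. Of all genes 38.8% were higher and 27.5% lower there, and of those averaging at least 10 CPM 26.5% and 48.4%.

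Other genes of folate and serine metabolism were taken from lists that were written by hand, and their counts at 1 µM can be read against the 38.8% higher and 27.5% lower of all genes, or 26.5% and 48.4% of those averaging at least 10 CPM. The genes named as highest or lowest in a list are those among called genes averaging at least 10 CPM. That mean is taken over all 15 libraries, so a gene can pass through only the groups where it is high. Of 12 other folate enzymes 2 were higher and 6 lower. FTCD, which feeds histidine carbon into folate, went from 0.592 to 42.8 CPM (6.17 ± 0.29), and TYMS, thymidylate synthase, from 81.8 to 2.80 CPM (-4.87 ± 0.20). FTCD averaged 1.72, 2.32 and 41.5 CPM at 0.15, 0.25 and 0.5 µM. Its mean thus passed 10 CPM only through the 2 higher doses. Opposite-strand genes cover 47.91% of TYMS exon bases. Of 6 tested genes of folate transport and retention 1 was higher and 2 lower. SLC19A1, the reduced folate carrier, fell from 196 to 23.2 CPM (-3.08 ± 0.17) and GGH, which trims folate polyglutamates, from 62.5 to 28.6 CPM (-1.13 ± 0.20). By edgeR the adjusted p of FTCD, TYMS, SLC19A1 and GGH was at most 6.73e-05. The folate receptor FOLR1, averaging under 10 CPM and named after its values were seen, went the other way. It averaged 1.6 CPM untreated, 15.7 CPM at 0.25 µM and 10.4 CPM at 1 µM.

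Of 8 genes of glycine cleavage and of serine and glycine breakdown 5 were higher and 2 lower, with a median of 1.25 against 0.32 for all genes. That median rests largely on genes of low level. GLDC, AMT, SDS and SRR, named after their values were seen, averaged 2.47, 0.0783, 0.145 and 4.16 CPM untreated. At 1 µM they averaged 7.07, 0.828, 1 and 12.2 CPM. Same-strand genes cover 62.64% of AMT exon bases, so its counts are uncertain, and opposite-strand genes cover 35.24% of those of SRR. SDSL, a serine dehydratase-like gene, was highest among those of at least 10 CPM (0.99 ± 0.22), although it peaked at 29.9 CPM at 0.15 µM from 7.97 CPM untreated. DLD, a subunit shared with other dehydrogenase complexes, was lowest among those of at least 10 CPM (-0.61 ± 0.15). Under that level, and named after its values were seen, GCSH, the lipoyl carrier of glycine cleavage, went from 12.4 to 4.06 CPM (-1.61 ± 0.24, edgeR adjusted p = 8.52e-06). The 7 serine and glycine carriers held 1 higher and 5 lower gene, with SFXN3, a sideroflexin, at 3.11 ± 0.19 and SLC6A9, a glycine transporter, at -3.93 ± 0.20. By edgeR the adjusted p of SDSL, DLD, SFXN3 and SLC6A9 was at most 0.00116.

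In the methionine cycle 3 of 10 genes were higher and 4 lower. Among those of at least 10 CPM the called genes ran from AHCYL2 at 1.59 ± 0.19 to MTRR, the methionine synthase reductase, at -2.24 ± 0.23 (edgeR adjusted p = 4.98e-07 and 8.63e-08). The other 2 higher genes, MAT1A and BHMT, both named after their values were seen, were at 0 in all untreated libraries and averaged 4.48 and 1.40 CPM at 1 µM. In transsulfuration and glutathione synthesis 2 of 5 were higher and 3 lower. CTH, cystathionine gamma-lyase, rose by 0.99 ± 0.15 while CBS, the step before it, changed by -1.52 ± 0.40 (edgeR adjusted p = 1.51e-05 and 0.00405). CBS has a near-identical copy in some human annotations, so its counts are uncertain.

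**Figure D4:**
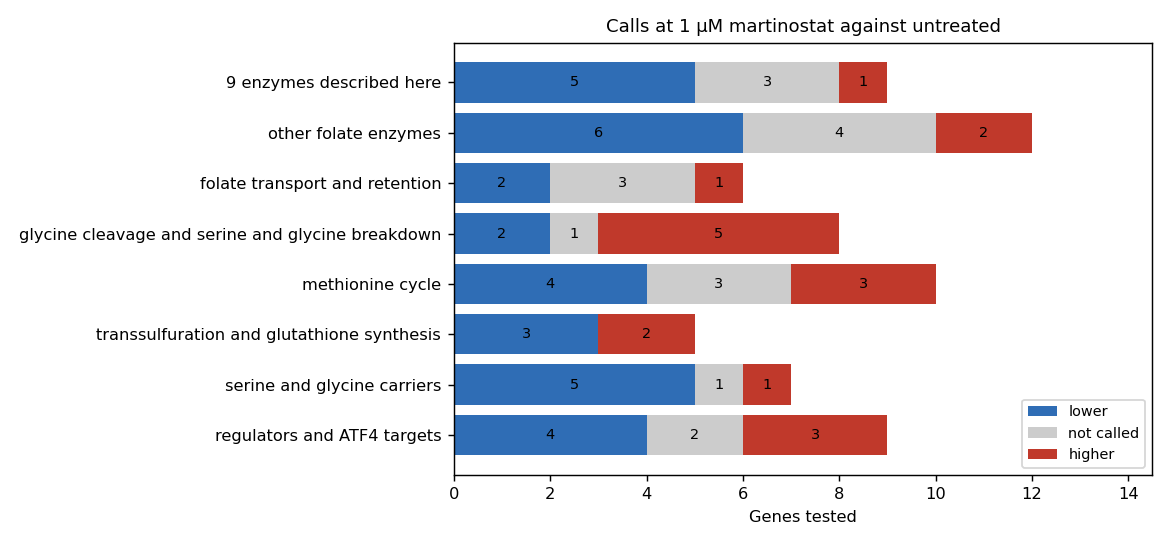
Number of tested genes that were lower, not called or higher at 1 µM martinostat against untreated cells (edgeR, adjusted p under 0.05), for the 9 enzymes and 7 lists of related genes. Higher genes outnumber lower ones in glycine cleavage and serine and glycine breakdown, 5 against 2, and lower ones outnumber higher in the other 7 bars.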

How the data were processed

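Messenger RNA of K562 cells was sequenced from directional libraries in 5 groups of 3. Per the labels the authors trimmed reads with Trim Galore 0.6.10, aligned them to hg38 with HISAT2 2.2.1 and counted them with featureCounts 1.5.3. The deposited table holds raw counts per gene. The authors also deposited FPKM values, whose gene length was the gene span with introns in 100% of 42167 genes compared (within 1.5 bases), with no composition correction. Counts were tested with edgeR 4.0.16 in R 4.3.3 (filterByExpr, TMM, robust quasi-likelihood fit over 15 libraries, group as the only term, 8 contrasts). DESeq2 1.42.0 and limma 3.58.1 on log2(FPKM + 1) and log2(FPKM + 0.1), other scalings and filters, a replicate block and leaving out libraries were alternatives. A replicate block fitted to 0.25 and 0.5 µM alone was added after seeing the data, since same-numbered libraries of these 2 groups deviated together (correlations 0.476, 0.5 and 0.754). The labels give no shared batch, and no other pair of groups passed 0.1 in every number. The blocked values that change a call stand beside the result. No 2 libraries were the same within sampling noise. Depth per library was 23755510 to 32805574 counts, and counting error is small beside the spread between libraries (biological coefficient of variation 0.228).

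Positions and exon lengths came from GENCODE v44 on hg38, which held 9 of 9 genes, 7 under the same ID version as the table. The 9 genes, the lists and the motifs were chosen with earlier results of these data known. Named outside the 9 were, per list, the genes with the highest and lowest change at 1 µM among those called with a mean of at least 10 CPM, plus ATF4, DDIT3, ASNS and MYC and the 3 genes most like PHGDH and MTHFD2. The edgeR script was tested on simulated data.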

Additional observations from a re-analysis of the deposited data

How the results depend on the processing

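The number of the 9 genes called stayed within 1.5 times its reported value under every alternative in 7 of 8 comparisons. From 0.25 to 0.5 µM it was 5, and 2 when only those libraries were fitted, 3 without both replicate 3 libraries, and 3 to 5 when 1 library was left out, the low counts coming without the second library at 0.25 µM or replicate 3 at 0.5 µM. With the replicate number as a block the counts were 6 at 0.15 µM, where SHMT2 was added (adjusted p = 0.0492), 9 at 0.25 µM, 7 at 0.5 µM and 6 at 1 µM, and, from 0.25 to 0.5 µM, 5 in the fit of all libraries and 6 in a fit of those 2 doses alone. The block over all libraries changed no other call on the 9 genes. Scaling set the sign of small changes that were not called in the reported fit, and it also made and removed calls. Library totals added PHGDH and MTHFD2 at 0.5 and 1 µM and ALDH1L2 at 0.15 µM as higher, and removed PSPH at 0.25, 0.5 and 1 µM, SHMT1 at 0.25 and 0.5 µM and SHMT2 at 0.25 and 1 µM. At 0.15 µM the log2 change of PSPH was 0.12 with library totals, 0.02 with TMM from genes of at least 10 CPM and 0.05 and 0.10 with limma on log2(FPKM + 1) and log2(FPKM + 0.1). In the same order SHMT1 at 1 µM was 0.04, 0.08, 0.02 and 0.04, MTHFD2 at 1 µM was 0.31, 0.35, 0.26 and 0.30, DDIT3 at 0.15 µM was 0.23, 0.14, 0.13 and 0.18, and ASNS at 0.25 µM was 0.36, 0.26, 0.03 and 0.18. Keeping only genes with at least 10 counts in every library gave 0.23 for MTHFD2, 0.05 for DDIT3 and 0.12 for ASNS, while MTHFD2 at 1 µM was 0.01 with RLE factors, 0.01 with DESeq2 and 0.02 with only the libraries compared. Without the replicate 3 libraries SHMT1 from 0.5 to 1 µM was -0.05. Leaving out 1 library gave -0.38 to 0.06 for DDIT3 at 0.15 µM, -0.09 to 0.20 for MTHFD2 at 0.5 µM, -0.12 to 0.02 for MTHFD2 at 1 µM, -0.03 to 0.21 for ASNS at 1 µM, and, from 0.5 to 1 µM, -0.20 to 0.11 for PSPH and -0.05 to 0.29 for SHMT1. The log2 ratio of SHMT2 to SHMT1 at 0.25 µM was -0.08 to 0.02 and that of MTHFD1L to MTHFD1 at 0.15 µM -0.06 to 0.02. The cause of these changes was not tested. At 119 to 146 counts in untreated libraries, ALDH1L2 is the member whose precision depth limits most.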
